A study of Rattus norvegicus with 4 samples.

Results

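The 32 genes described here encode enzymes and carriers of the Krebs cycle, of pyruvate entry, of the malic enzyme and citrate export routes, of the malate-aspartate shuttle and of glutamate handling. A gene was taken as a member where the transcript accession listed for a probe belongs to it, and each gene was represented by its brightest probe over the 4 arrays. No probe could be matched to Me3, a mitochondrial malic enzyme, or to Slc25a12, an aspartate-glutamate carrier. The other 30 were well above background on all 4 arrays and were tested, of 11654 genes tested in all. The arrays held RNA of primary rat oligodendrocyte precursor cells (OPCs) isolated from pooled cortices of Sprague–Dawley pups at postnatal day 2. All of the cells were expanded for 3 days with bFGF and PDGF, switched to differentiating medium with T3 hormone, transfected with Lipofectamine RNAiMAX and lysed 48 h later. The 2 siGPR17 samples received 50 nM of a siRNA pool against rat GPR17, a receptor that OPCs carry transiently while they mature, and the 2 siNEG samples received a non-targeting RNA pool. The labels give 2 independent samples for each condition without saying how they arose, so the p-values measure only the spread between these samples.

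In the Krebs cycle, acetyl-CoA derived from pyruvate joins oxaloacetate to form citrate, which is oxidised stepwise back to oxaloacetate while NADH is made for respiration. Intermediates that leave the cycle are replaced by anaplerosis, mainly through pyruvate carboxylation and glutamate. In maturing oligodendrocytes citrate is also exported to the cytosol, where it is split into the acetyl-CoA from which the fatty acids and cholesterol of myelin are built. Malic enzymes and isocitrate dehydrogenases linked to NADP yield the NADPH that this synthesis consumes.

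Signals are given in siNEG replicate 1, siNEG replicate 2, siGPR17 replicate 1 and siGPR17 replicate 2 order, as intensities scaled to the 75th percentile of each array, and they are not comparable between probes of different genes. Gpr17 itself had signals of 1107 and 1113 on the siNEG arrays and of 652 and 639 on the siGPR17 arrays. Its log2 fold change was -0.78 (standard error 0.0845, adjusted p = 0.209). Adjusted p-values are from limma with Benjamini-Hochberg adjustment over 28016 probes, and the thresholds, taken from the study's methods, were a 1.5-fold difference and an adjusted p below 0.07. With 2 arrays against 2 an exact two-sided permutation test of a single gene cannot give a p under 0.333. All arrays lay on 1 slide, with siNEG in one column of it and siGPR17 in another, so column and treatment cannot be told apart. All 12 markers of the oligodendrocyte lineage were well above background, with a summed signal of 486345 and 561189 in siNEG and of 531827 and 548383 in siGPR17 OPCs. Mbp, a myelin protein, made up the largest share of that sum and was 0.32 higher on the log2 scale. Mag was 0.20 higher, whereas 10 of the 12 were lower, Gpr17 as the target of the siRNA among them. The log2 fold changes were -0.67 for Mog and -0.48 for Cspg4, and the median of the 12 was -0.23. Over all 11 astrocyte markers, 10 of them detected, the sum was 118970 and 133829 in siNEG and 122529 and 123848 in siGPR17 OPCs, most of it from Aldoc. Of the 10, 5 were higher and 5 lower, from -1.35 for Aqp4 and -0.61 for Gfap to 0.50 for S100b. Over all 11 neuronal markers (10 detected, 9 of them lower, median -0.22) the sum was 7446 and 8781 against 7193 and 6946. Over all 10 microglial markers (8 detected, 7 lower, median -0.19, with Csf1r and Ptprc not well above background on 2 or more arrays) it was 4000.05 and 2693 against 2699.9 and 3161. Over all 10 endothelial and mural markers (5 detected, all 5 higher, median 0.43, with Pecam1, Cldn5, Pdgfrb, Rgs5 and Col3a1 not well above background on 2 or more arrays) it was 435.3 and 427.7 against 645.1 and 611.4. Such sums add probes of unequal response and are led by their brightest ones. The part of these cells in the results was not tested.

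Of the 30 genes, 0 passed the thresholds in limma, as 0% of all tested genes did, and 0 differed by a fold of 1.5 or more, against a background of 5.06%. Their adjusted p-values lay between 0.211 and 0.996. Without adjustment 3 had a p under 0.05, which is 10.0% of the genes against 16.2% of all tested genes. They were Me1 and Dld with higher signals in siGPR17 OPCs (2 genes, background 7.43%) and Idh3b with a lower one (1 gene, background 8.74%). With 1 array left out, their log2 fold changes ranged from 0.25 to 0.41 for Me1, 0.240 to 0.244 for Dld and -0.67 to -0.47 for Idh3b. The 2 groups were without overlap for 12 of the 30, or 40.0%, against 53.4% of all tested genes. Of these, 10 were higher in siGPR17 OPCs (28.1% of all tested genes) and 2 were lower (25.3%). These counts were below the background, apart from the 10 higher genes without overlap, whose share was near it. In all, 19 genes had a log2 fold change above 0 and 11 below it, with a median of 0.041 over the 30 and of 0.0099 over all tested genes. For bulk RNA, fewer cells of a type and less RNA per cell cannot be told apart.

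The differences were small. The log2 fold change was under 0.2 in size for 25 of the 30 genes, which is 83.3% against 63.9% of all tested genes, and its median size was 0.096 against 0.14. For 26 of the 30 genes (86.7%) the 95% interval of the log2 fold change lay within a fold of 1.5 in either direction, against 67.6% of all tested genes. The other 4 were Idh3b, Me1, Slc25a1 and Glul, for which a fold of 1.5 lay within the interval. The lowest signal was 528 among the 30 genes and 3.12 among all tested genes. Of the 11654 tested genes, 10966 were well above background on all 4 arrays, as all of the 30 were. The background was not matched for signal, here or in the counts above, and the part of signal level in these shares was not tested. In 21 of the 30 genes the gap between the siNEG replicates was larger than the difference between the group means. The share of all tested genes with such a gap was not computed. Replicate 2 was above replicate 1 for 22 of the 30 genes in siNEG OPCs (73.3%, against 62.1% of all tested genes) and for 17 of the 30 in siGPR17 OPCs (56.7%, against 47.3%).

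**Figure D1:**
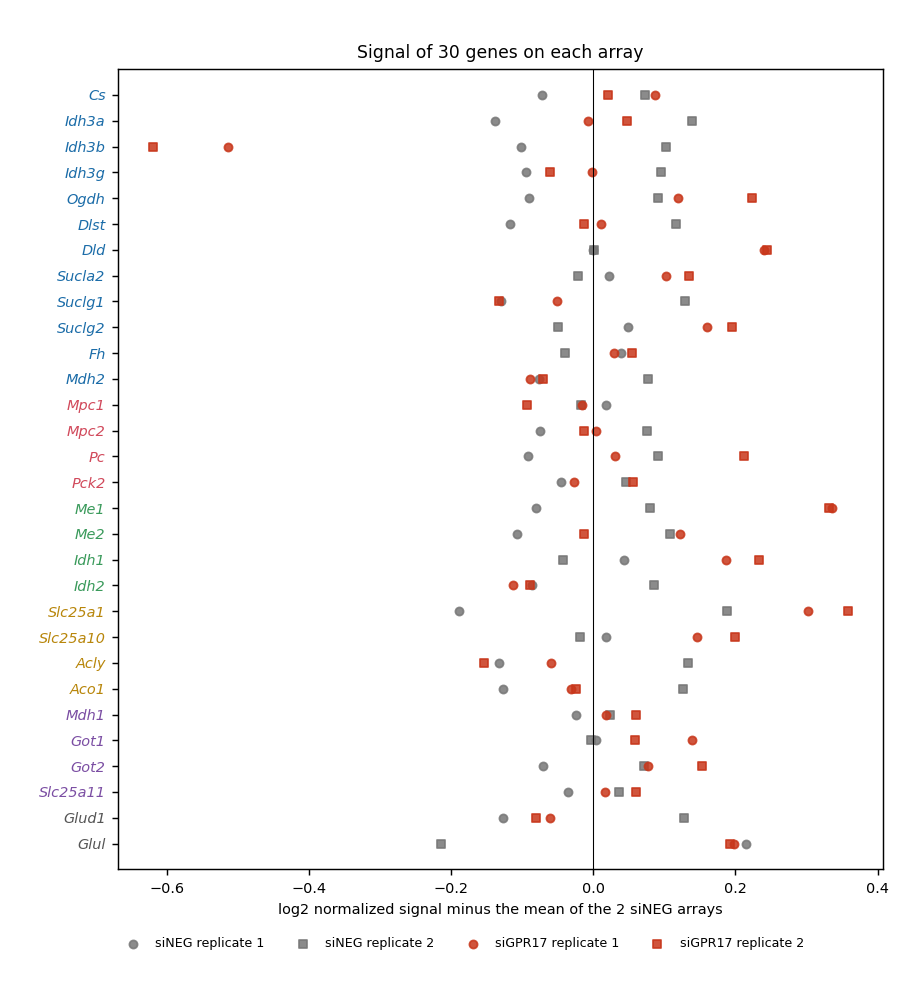
Normalized signal of 30 genes on each of the 4 arrays, as log2 minus the mean of the 2 siNEG arrays (x axis, 0 at the line), with 1 gene on each line, ordered and coloured by branch. Grey points are siNEG and red points siGPR17, with circles for replicate 1 and squares for replicate 2, and Idh3b is the gene whose red points lie farthest left, with values of 4152 and 3859.6 against 5526 and 6365 on the linear scale.

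**Figure D2:**
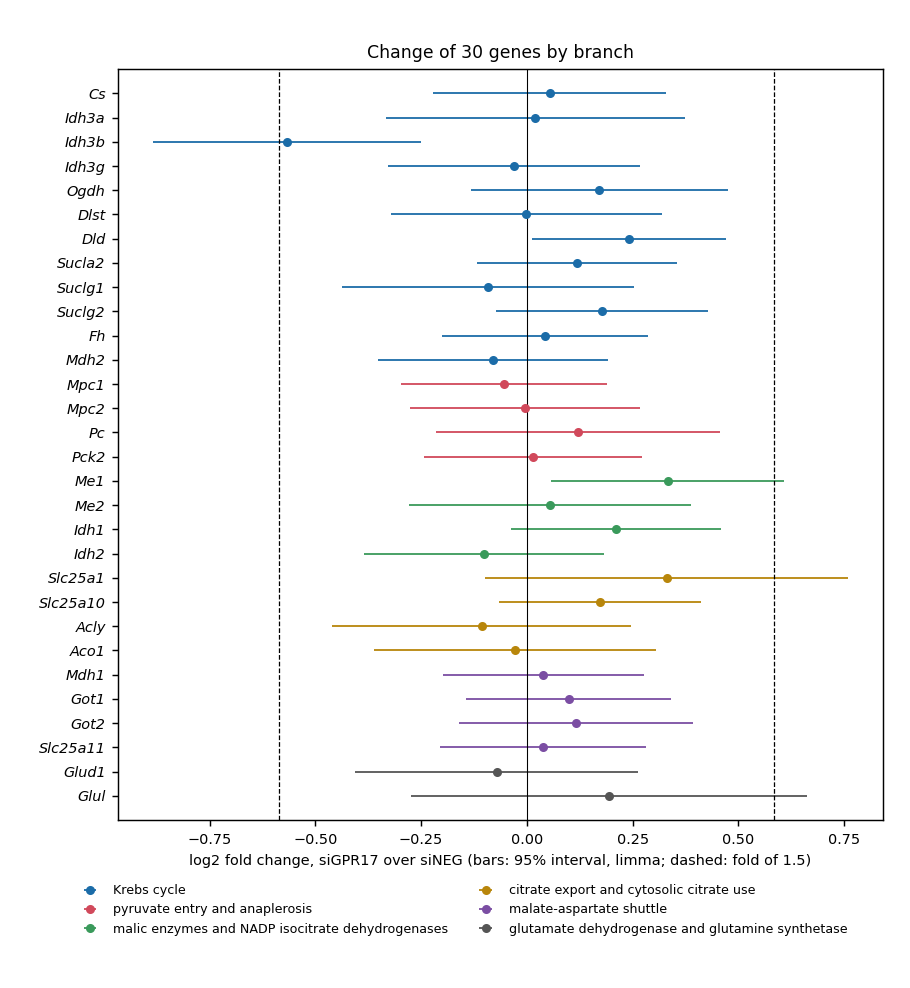
Log2 fold change of siGPR17 over siNEG (x axis) for the same 30 genes, with the 95% interval from limma as bars and colours for the 6 branches, and dashed lines at a fold of 1.5. All 30 points lie between the dashed lines, and the bars of Idh3b, Me1, Slc25a1 and Glul cross one of them.

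The promoter sequences of the 3 genes with an unadjusted p under 0.05 are shown because the largest differences relative to their error were found for these genes. They are the 250 bases before the start of each gene, 5′ to 3′ on the strand of the gene, from RefSeq on GRCr8, and all 3 genes lie on the minus strand. Capitals mark matches on either strand to TGACNNNGC, the core of the antioxidant response element, to ACGTG, the core of the hypoxia response element, to the GC box GGGCGG, to the CCAAT box or to AAGGTCA, a motif of nuclear receptors. Idh3b is at chr3:137939991-137940240, Me1 at chr8:96540245-96540494 and Dld at chr6:53652348-53652597.
Idh3b: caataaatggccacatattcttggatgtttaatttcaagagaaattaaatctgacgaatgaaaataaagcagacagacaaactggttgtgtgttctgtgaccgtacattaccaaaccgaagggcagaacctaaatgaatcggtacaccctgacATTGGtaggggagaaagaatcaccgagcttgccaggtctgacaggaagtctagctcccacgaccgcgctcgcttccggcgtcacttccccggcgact
Me1: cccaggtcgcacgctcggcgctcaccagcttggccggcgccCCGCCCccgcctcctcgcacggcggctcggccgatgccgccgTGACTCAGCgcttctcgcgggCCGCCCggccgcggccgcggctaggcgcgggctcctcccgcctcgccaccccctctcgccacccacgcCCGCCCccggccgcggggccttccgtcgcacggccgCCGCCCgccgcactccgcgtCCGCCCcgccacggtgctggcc
Dld: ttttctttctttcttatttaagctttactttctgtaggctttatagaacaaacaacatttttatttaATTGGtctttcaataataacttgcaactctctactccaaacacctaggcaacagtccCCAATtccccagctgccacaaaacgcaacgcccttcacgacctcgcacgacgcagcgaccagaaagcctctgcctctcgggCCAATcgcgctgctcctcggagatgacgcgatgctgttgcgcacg
The Idh3b window held 1 CCAAT box, 97 to 93 bases before the start. The window of Me1 held 5 GC boxes and 1 antioxidant response core with the letters TGACTCAGC, 167 to 159 bases before the start. Dld had 3 CCAAT boxes, whose first bases lay 183, 126 and 45 bases before the start. Over 30 members with a window (Idh3a and Pc had none), a GC box was found in 21 (70.0%), and 30.5% of 33469 promoters held one. A CCAAT box was found in 18 of the 30 and in 34.0% of all promoters. The antioxidant response core was found in 7 members, Got1, Idh1, Idh3g, Mdh2, Me1, Mpc2 and Sucla2, or 23.3%, and in 10.1% of all promoters. ACGTG was found in 3 members (10.0%, against 16.6%) and the E-box CACGTG, which contains it, in 1 (3.33%, against 5.59%). AAGGTCA and the NRF1 site were found in 0 members, and in 3.99% and 0.762% of all promoters. The members were counted by 1 window per gene. The 33469 promoters were all windows available, with no limit to 1 per gene or to tested genes, so the shares compare unlike sets. These matches describe letters, not bound sites.

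Of the 12 Krebs cycle enzymes, 7 had a log2 fold change above 0 and 5 below it, with a median of 0.03. The groups were apart for 4 that were higher (Ogdh, Dld, Sucla2 and Suclg2) and for 1 that was lower (Idh3b) in siGPR17 OPCs, or 41.7% of the branch against 53.4% of all tested genes. Cs, the citrate synthase that opens the cycle, had signals of 5480.0 and 6060.4 in siNEG and 6119.6 and 5845 in siGPR17 OPCs. The groups overlapped, with a log2 fold change of 0.054 (95% interval -0.22 to 0.33).

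Isocitrate dehydrogenase linked to NAD is built of the catalytic subunit Idh3a and the subunits Idh3b and Idh3g. Idh3b gave 5526 and 6365 on the siNEG arrays and 4152 and 3859.6 on the siGPR17 arrays. Both siGPR17 arrays were below both siNEG arrays. The log2 difference was -0.41 between the arrays numbered 1 and -0.72 between those numbered 2, though these numbers were not taken to pair the samples. The means were 5946 ± 594 in siNEG and 4006 ± 207 in siGPR17 OPCs (SD, n = 2), and the signal was 1.48-fold lower. On the log2 scale the fold change of Idh3b was -0.57 (standard error 0.116, 95% interval -0.88 to -0.25) with an unadjusted p of 0.00731 and an adjusted p of 0.211 from limma. It was the largest difference among the 30 genes. Only leaving out an array, rescaling and another background correction could move it, and it ranged from -0.67 to -0.46 over all 16 other ways of processing the arrays. The limma adjusted p ranged from 0.0377 to 0.665 over these alternatives. It was 0.0377 where limma modelled a trend of the variance and used robust estimation, and 0.0613 with normexp background correction, in each case with a fold under 1.5.

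The other subunits differed far less. Idh3a had 1139 and 1380.0 in siNEG and 1247 and 1295 in siGPR17 OPCs. Idh3g had 45604 and 52055 in siNEG and 48669 and 46701 in siGPR17 OPCs. The groups overlapped for both, with log2 fold changes of 0.020 (95% interval -0.33 to 0.37) and -0.031 (95% interval -0.33 to 0.27). Within an array the ratio of 2 probes does not depend on a factor by which the whole array is scaled, though quantile normalization can move it. The log2 ratio of Idh3b to Idh3g differed by -0.54 between siGPR17 and siNEG OPCs, with the siGPR17 arrays apart from the siNEG arrays. It ranged from -0.56 to -0.51 when 1 array was left out and was -0.51 with normexp and -0.48 with quantile normalization. The log2 ratio of Idh3b to Idh3a differed by -0.59, by -0.67 to -0.51 when 1 array was left out, by -0.47 with normexp and by -0.61 with quantile normalization. These ratios were chosen after the values had been seen and carry no test. Each subunit was read by 1 probe only.

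The oxoglutarate dehydrogenase complex is made of Ogdh, which binds the substrate, of Dlst, which transfers the succinyl group, and of Dld, the dihydrolipoamide dehydrogenase that it shares with the pyruvate dehydrogenase complex. Dld gave 5221 and 5228 in siNEG and 6169.7 and 6187 in siGPR17 OPCs. The replicates of each group were nearly equal and the groups were apart, with means of 5225 ± 5.28 and 6178 ± 12.2 (SD, n = 2). The log2 fold change was 0.24 (standard error 0.0839, 95% interval 0.012 to 0.47), a 1.18-fold higher signal, with an unadjusted p of 0.043 and an adjusted p of 0.287 from limma. Ogdh gave 1405 and 1595 in siNEG and 1625 and 1748 in siGPR17 OPCs, without overlap, for a log2 fold change of 0.17 (95% interval -0.13 to 0.48, limma adjusted p = 0.483). Dlst gave 12774 and 15015 in siNEG and 13948 and 13723 in siGPR17 OPCs. Its groups overlapped, with a log2 fold change of -0.0014 (95% interval -0.32 to 0.32). The other 2 tested probes of this gene gave -0.01 with overlap and 0.16 without overlap. By the brightest probe of each gene, Dld and Ogdh thus had separate groups and Dlst did not.

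Succinyl-CoA ligase joins the shared subunit Suclg1 to Sucla2 or to Suclg2, which set whether ATP or GTP is made. Sucla2 had signals of 4939 and 4791 in siNEG and 5221 and 5343 in siGPR17 OPCs. Suclg2 had 3762 and 3513 in siNEG and 4059.9 and 4160.0 in siGPR17 OPCs. Both were higher without overlap between the groups, with log2 fold changes of 0.12 (95% interval -0.12 to 0.35) and 0.18 (95% interval -0.073 to 0.43). Suclg1 had 38106 and 45612 in siNEG and 40226 and 38007 in siGPR17 OPCs. It overlapped, with a log2 fold change of -0.093 (95% interval -0.44 to 0.25).

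The last steps of the cycle are carried out by fumarase, Fh, and by the mitochondrial malate dehydrogenase Mdh2. Fh gave 9895 and 9367 in siNEG and 9827 and 10001 in siGPR17 OPCs. Mdh2 gave 9582 and 10655 in siNEG and 9499.5 and 9623 in siGPR17 OPCs. Both overlapped between groups, with log2 fold changes of 0.042 (95% interval -0.20 to 0.29) and -0.080 (95% interval -0.35 to 0.19), each within a fold of 1.5.

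Pyruvate entry and its carboxylation showed no separation of the groups in any of 4 genes, while the groups were apart for 53.4% of all tested genes. The mitochondrial pyruvate carrier is formed by Mpc1 and Mpc2. Mpc1 had 28036 and 27360.3 in siNEG and 27382 and 25948 in siGPR17 OPCs. Mpc2 had 41251 and 45819.8 in siNEG and 43596 and 43061 in siGPR17 OPCs. Both subunits overlapped, with log2 fold changes of -0.055 (95% interval -0.30 to 0.19) and -0.0049 (95% interval -0.28 to 0.27). Pc, the pyruvate carboxylase that refills oxaloacetate, had 2938 and 3334 in siNEG and 3196 and 3625 in siGPR17 OPCs, for a log2 fold change of 0.12 (95% interval -0.21 to 0.46). Pck2, the mitochondrial phosphoenolpyruvate carboxykinase that draws on oxaloacetate, had 585 and 623 in siNEG and 592 and 627 in siGPR17 OPCs. The log2 fold change was 0.014 (95% interval -0.24 to 0.27), and 2 genes of this branch lay above 0 and 2 below it.

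Among the malic enzymes and NADP isocitrate dehydrogenases, 3 of 4 tested genes were above 0, with a median log2 fold change of 0.13. Of all tested genes 52.0% were above 0. Me1, the cytosolic malic enzyme that turns malate into pyruvate and NADPH, gave 2577 and 2881 in siNEG and 3438 and 3428 in siGPR17 OPCs. Both siGPR17 arrays exceeded both siNEG arrays, with means of 2729 ± 214 and 3433 ± 7.51 (SD, n = 2). In siGPR17 OPCs it was 1.26-fold higher, a log2 fold change of 0.33 (standard error 0.101, 95% interval 0.058 to 0.61), with an unadjusted p of 0.0281 and an adjusted p of 0.261 from limma. It ranged from 0.25 to 0.44 over the 16 alternatives, of which only leaving out an array, rescaling and another background correction could move it. Me2, a mitochondrial malic enzyme, gave 1811 and 2104 in siNEG and 2125 and 1935 in siGPR17 OPCs, with overlap and a log2 fold change of 0.055 (95% interval -0.28 to 0.39).

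The cytosolic Idh1 and the mitochondrial Idh2 both oxidise isocitrate with NADP. Idh1 had 7865 and 7412 in siNEG and 8689.8 and 8978 in siGPR17 OPCs. Idh2 had 9455 and 10653 in siNEG and 9280.3 and 9433 in siGPR17 OPCs. Both genes had groups without overlap, with Idh1 higher and Idh2 lower in siGPR17 OPCs. For Idh1 the log2 fold change was 0.21 (95% interval -0.038 to 0.46, limma adjusted p = 0.342), and that of Idh2 was -0.10 (95% interval -0.38 to 0.18, limma adjusted p = 0.646). The separation of Idh2 was narrow, and its log2 fold change was 0.010 when arrays were scaled on spike-in controls.

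**Figure D3:**
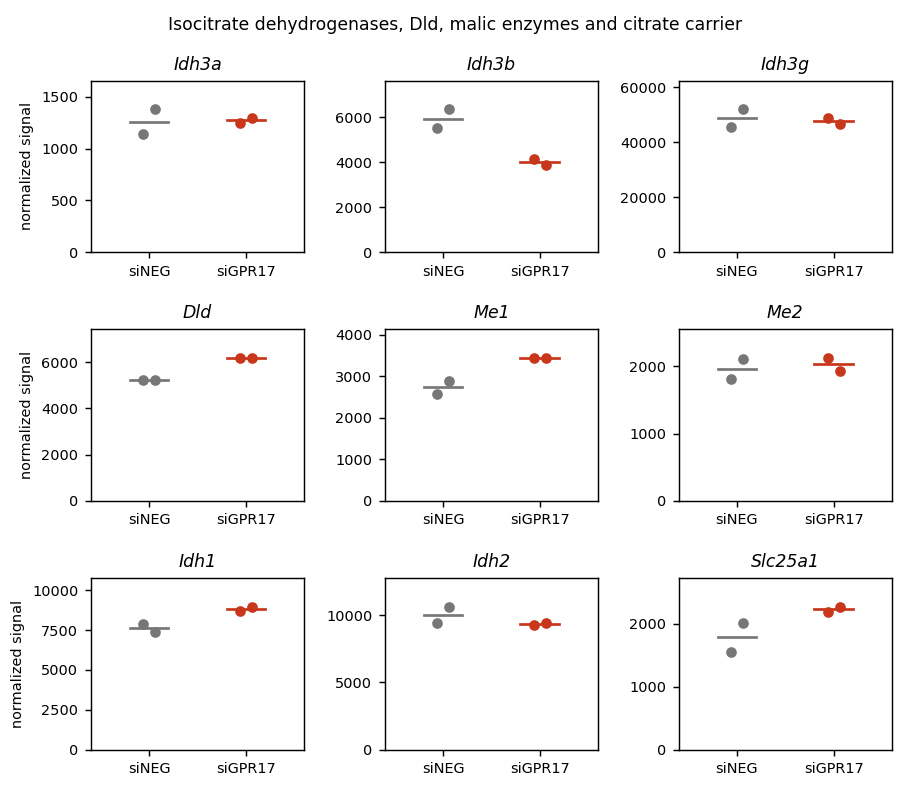
Normalized signal (y axes, linear, from 0) of 9 genes in siNEG and siGPR17 OPCs, with 1 point for each array and a line at the mean of 2 arrays. Idh3b is lower in siGPR17 OPCs at 4006 ± 207 against 5946 ± 594 (SD, n = 2) while Idh3a and Idh3g overlap, and Dld, Me1, Idh1 and Slc25a1 are higher without overlap.

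In the citrate export branch, 2 of 4 genes were higher in siGPR17 OPCs without overlap, both of them carriers, and 28.1% of all tested genes were higher without overlap. Slc25a1, the citrate carrier of the inner mitochondrial membrane, gave 1554 and 2018 in siNEG and 2184 and 2271 in siGPR17 OPCs. The siGPR17 arrays lay above both siNEG arrays, which were themselves far apart, with means of 1786 ± 328 and 2227 ± 61.4 (SD, n = 2). The log2 fold change was 0.33 (standard error 0.157, 95% interval -0.10 to 0.76, limma adjusted p = 0.372). Leaving out siNEG replicate 1 gave 0.14, and leaving out siNEG replicate 2 gave 0.52. Slc25a10, the dicarboxylate carrier that exchanges malate or succinate for phosphate, gave 1058 and 1032 in siNEG and 1156 and 1200.0 in siGPR17 OPCs, for a log2 fold change of 0.17 (95% interval -0.065 to 0.41).

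For the enzymes that act on citrate in the cytosol the groups were not apart. Acly, which splits citrate into acetyl-CoA and oxaloacetate, had 43733 and 52599.8 in siNEG and 46022 and 43103 in siGPR17 OPCs. Aco1, the cytosolic aconitase that also serves as an iron-responsive RNA-binding protein, had 6601 and 7867 in siNEG and 7049 and 7083 in siGPR17 OPCs. The groups overlapped for both, and the log2 fold changes were -0.11 (95% interval -0.46 to 0.25) and -0.028 (95% interval -0.36 to 0.30). For both genes the highest signal was that of siNEG replicate 2.

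All 4 tested genes of the malate-aspartate shuttle, which carries the electrons of cytosolic NADH into mitochondria, had log2 fold changes above 0, with a median of 0.07. A log2 fold change above 0 was found for 52.0% of all tested genes. The cytosolic aspartate aminotransferase Got1 gave 2933 and 2917 in siNEG and 3221 and 3046 in siGPR17 OPCs. Got2, its mitochondrial counterpart, gave 4897 and 5407 in siNEG and 5429 and 5723 in siGPR17 OPCs. Neither overlapped between groups, although Got2 was only slightly apart, and the log2 fold changes were 0.10 (95% interval -0.14 to 0.34) and 0.12 (95% interval -0.16 to 0.39). Mdh1, the cytosolic malate dehydrogenase, gave 6085 and 6290.4 in siNEG and 6263 and 6451 in siGPR17 OPCs. Slc25a11, which exchanges malate for oxoglutarate, gave 6839.9 and 7188 in siNEG and 7090.1 and 7313 in siGPR17 OPCs. The groups overlapped for both of these, with log2 fold changes of 0.039 (95% interval -0.20 to 0.28) and 0.038 (95% interval -0.20 to 0.28).

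Glutamate enters the cycle through Glud1, glutamate dehydrogenase, and is turned into glutamine by Glul, glutamine synthetase. Glud1 had 2468 and 2946 in siNEG and 2585 and 2548 in siGPR17 OPCs, with overlap and a log2 fold change of -0.071 (95% interval -0.41 to 0.26). Glul had 712 and 528 in siNEG and 703 and 700.5 in siGPR17 OPCs. One siNEG array was below the other 3 arrays, which were close to each other, and the groups overlapped. The log2 fold change was 0.19 (95% interval -0.27 to 0.66), the widest interval among the 30 genes. Its value moved to -0.020 with siNEG replicate 2 left out and to 0.41 with siNEG replicate 1 left out. The summed signal of all 10 microglial markers, 8 of them detected, also differed between the siNEG replicates, at 4000.05 and 2693, and was 2699.9 and 3161 in siGPR17 OPCs. Glul is abundant in astrocytes, whose 11 markers, 10 of them detected, summed to 118970 and 133829 in siNEG and to 122529 and 123848 in siGPR17 OPCs. The part of these cells in the Glul signal was not tested.

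The 89 further genes of these pathways were placed in 8 lists, of which 75 genes were tested, 46 with log2 fold changes above 0 and 29 below. None passed the thresholds (0 of 75), and 19 had an unadjusted p under 0.05 in limma, 11 higher and 8 lower, or 25.3% against 16.2% of all tested genes. All 8 tested genes in the rest of the Krebs cycle were above 0, from 0.0079 for Sdhc to 0.36 for Dhtkd1, an oxoadipate dehydrogenase. Their median was 0.09, with 5 of the 8 free of overlap between groups (62.5%, near the 53.4% of all tested genes), and 52.0% of all tested genes were above 0. Sdha, the flavoprotein of succinate dehydrogenase, had 9904 and 9687 in siNEG and 11503 and 12024 in siGPR17 OPCs, for a log2 fold change of 0.26 (95% interval 0.024 to 0.50, limma adjusted p = 0.279). In the pyruvate dehydrogenase complex and its phosphatases 5 of 8 genes were above 0, with a median of 0.08, from -0.14 for the catalytic subunit Pdha1 to 0.43 for the lipoyltransferase Lipt1. Anaplerosis from propionate and branched-chain amino acids had 5 of 9 above 0 and a median of 0.06. It ranged from -0.53 for Bcat1, the cytosolic branched-chain aminotransferase, with signals of 12994 and 14301 in siNEG and 9683 and 9163 in siGPR17 OPCs, to 0.24 for Dbt of the branched-chain ketoacid dehydrogenase.

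The list of glutamine, glutamate and proline metabolism had the highest median of the 8 lists, 0.20, with 9 of 14 genes above 0, and 4 of these had an unadjusted p under 0.05 in limma, while 52.0% of all tested genes were above 0 and 7.43% were higher with such a p. The ends of this list were Asns, asparagine synthetase, at 0.42 (signals of 3867 and 4352 in siNEG and 5483 and 5520.2 in siGPR17 OPCs), and Gpt2, the mitochondrial alanine aminotransferase, at -0.31. Transporters of glutamate and glutamine were split evenly, 6 above and 6 below 0, between 0.50 for the cystine-glutamate exchanger Slc7a11 and -0.37 for Slc1a3, which takes up glutamate and is also an astrocyte marker. Other mitochondrial carriers had a median of 0.03, from -0.14 for Slc25a23 to 0.23 for the ornithine carrier Slc25a15. In the acetyl-CoA and N-acetylaspartate list, 7 of 10 were above 0. Acss2, which makes acetyl-CoA from acetate in the cytosol, had 1178 and 1337 in siNEG and 1774 and 1841 in siGPR17 OPCs, for a log2 fold change of 0.53 (95% interval 0.23 to 0.82, limma adjusted p = 0.211). Slc13a3, a dicarboxylate transporter of the plasma membrane, had 59.4 and 74.3 in siNEG and 41.2 and 43.9 in siGPR17 OPCs, and its log2 fold change of -0.64 (95% interval -1.04 to -0.25, limma adjusted p = 0.216) was the only one of the 75 at a fold of 1.5 or more. The 5 genes of the glycerol phosphate shuttle and transhydrogenase list had a median of -0.20. Nnt, the transhydrogenase that makes mitochondrial NADPH from NADH, had 2055 and 1989 in siNEG and 1441 and 1352 in siGPR17 OPCs, for a log2 fold change of -0.53 (95% interval -0.78 to -0.28, limma adjusted p = 0.209), and Nadk, which makes NADP, was at 0.16.

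**Figure D4:**
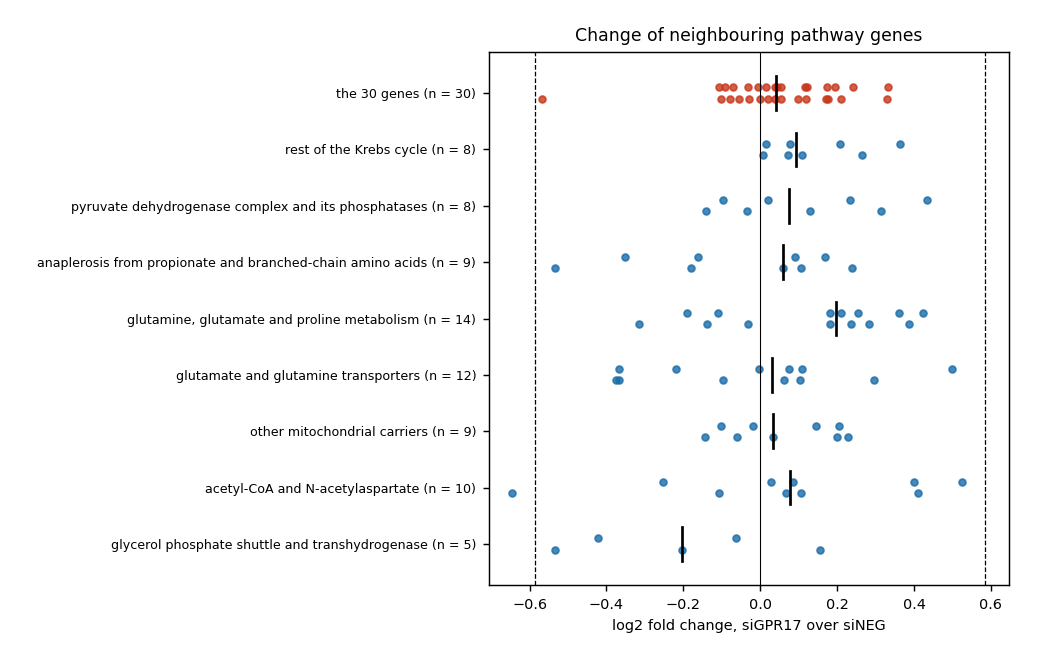
Log2 fold change of siGPR17 over siNEG (x axis) for the 30 genes (red) and for 8 lists of other genes of these pathways (blue), with 1 point for each gene, bars at the medians and dashed lines at a fold of 1.5. The medians of the 8 lists lie between -0.20 and 0.20, and only Slc13a3, at -0.64, lies outside the dashed lines.

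The signs of the small differences depended on single arrays and on the scaling of the arrays. For 15 of the 30 genes the log2 fold change kept its sign in all 16 alternatives. These were Idh3b below 0 and Ogdh, Dld, Sucla2, Suclg2, Fh, Pc, Me1, Idh1, Slc25a1, Slc25a10, Mdh1, Got1, Got2 and Slc25a11 above it. For the other 15 it turned in at least 1 alternative. Scaling on spike-in controls moved the median log2 fold change of all tested genes from 0.0099 to 0.12. Either scaling shifts all genes of an array by the same amount, so the distance of the 30 genes from that median, 0.031, could not change. Leaving out siNEG replicate 1 gave a median of -0.0083 over the 30 genes, and leaving out siNEG replicate 2 gave 0.096.

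**Figure D5:**
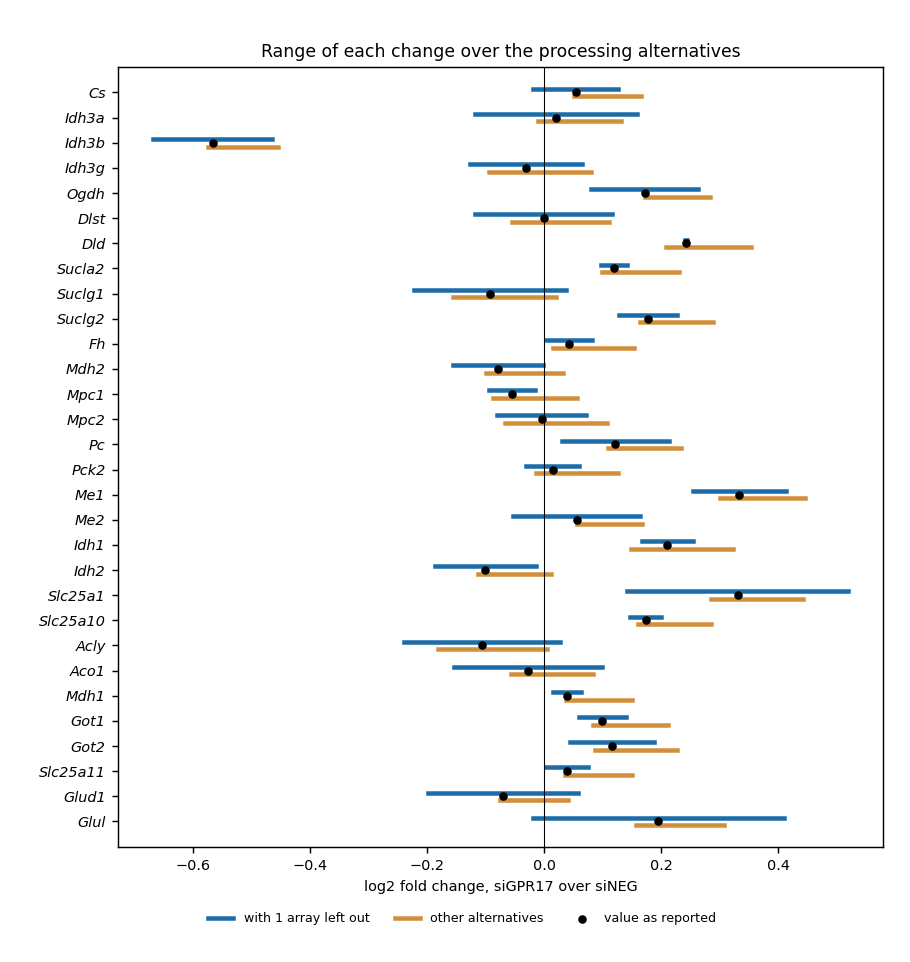
Range of the log2 fold change of siGPR17 over siNEG (x axis) for each of the 30 genes when 1 array was left out (blue) and under the other alternatives (orange), with the reported value as a black point. The bars of Idh3b range from -0.67 to -0.46, while those of 15 genes reach across 0.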

How the data were processed

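The deposited files hold the spot intensities of each array from Agilent Feature Extraction (version 10.7.3.1 per the submitters' processing notes), corrected for background by that software and not normalized between arrays. Here controls and outlier-flagged spots were removed and spots of one probe were averaged. The log2 intensity minus the 75th percentile of each array was fitted with limma 3.58.1 in R 4.3.3 (lmFit, eBayes, two-sided, no block), over 28016 of 45598 non-control probes detected well above background on 2 or more arrays. Printed signals are these values on the linear scale, times a factor shared by the arrays. The 75th percentile lay between 564.9 and 624.1 intensity units, each array had 26997 to 28244 probes well above background and 0 saturated. Precision is limited by the number of arrays.

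A symbol was found for 21093 probes through their accessions in a RefSeq table of GRCr8, used for names, and promoters came from RefSeq on the same assembly. A single probe stands for most genes: 1 of the 30 (Dlst) had more than 1 tested probe. The members and all lists were chosen with earlier results of these data known. All members were to be named, and of each other list the largest and smallest log2 fold change, while Sdha, Sdhc and the probe ratios were named after their values had been seen. The study's methods give the thresholds without naming the test used on the arrays.

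Alternatives were normexp background correction (offset 50, on the median spot intensities that the authors deposited) and quantile, median and spike-in scaling (11 spike-in probes). An unpaired t-test was another, which the study's methods give for 2 groups in general without tying it to the arrays. Further ones were eBayes with a trend and robust, a replicate block, no filter, detection on all 4 arrays and dim values set to a floor. The mean of all probes of a gene, curated mRNA probes, and each array left out completed the list. The scripts were tested on simulated data.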

Additional observations from a re-analysis of the deposited data

How the results depend on the processing

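No gene of the 30 passed the thresholds in any of the 16 alternatives (0 in each), while 112 of all tested genes did so with normexp and 184 where eBayes modelled a trend and was robust. The count with an unadjusted p under 0.05 in limma, 3 as reported, was 5 with spike-in scaling and 5 with trend and robust options. The shares of all tested genes were 19.4% and 20.8% there, against 16.2% as reported. With a replicate block the count was 1. The replicate block lowered the share of all tested genes from 16.2% to 11.0% as well. Replicate numbers coincided with the row of the slide, and the deviations of equally numbered arrays correlated at -0.0652 over probes, so the numbers were not taken to pair the samples, and the block ended no call. The count without overlap, 12 as reported, was 22 with spike-in scaling, where it was 62.5% of all tested genes. With 1 array left out it was 15 to 26, where fewer arrays make a separation easier. The share of all tested genes was then 68.6% to 84.7%. The median log2 fold change, 0.041 as reported, was 0.15 with spike-in scaling and -0.0083 to 0.096 with 1 array left out. Gpr17 was past the thresholds with normexp, at -0.66 (limma adjusted p = 0.0220), and with the trend and robust options, at -0.78 (limma adjusted p = 0.0152). With spike-in scaling, which moved all genes up, the sign turned for Idh3g (0.080), Dlst (0.11), Suclg1 (0.019), Mdh2 (0.032), Mpc1 (0.056), Mpc2 (0.11), Idh2 (0.010), Acly (0.0047), Aco1 (0.083) and Glud1 (0.041). With normexp it turned for Idh3a (-0.012), Idh3g (0.021), Mpc2 (0.00041) and Pck2 (-0.014), and for Dlst with median scaling (0.0012) and with the mean of its probes (0.047). With 1 array left out, the log2 fold change ranged from -0.019 to 0.13 for Cs, -0.12 to 0.16 for Idh3a, -0.13 to 0.064 for Idh3g, -0.12 to 0.12 for Dlst, -0.22 to 0.037 for Suclg1, -0.081 to 0.071 for Mpc2, -0.032 to 0.059 for Pck2, -0.053 to 0.16 for Me2, -0.24 to 0.026 for Acly, -0.15 to 0.10 for Aco1, -0.20 to 0.057 for Glud1 and -0.020 to 0.41 for Glul, in each case across 0. The cause of these turns was not tested. The 4 arrays limit the precision of every value.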

Other observations

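Several of the 30 genes are cytosolic and mitochondrial forms of one activity, and the log2 ratio of their signals within an array does not change when the whole array is scaled by a factor, though quantile normalization and another background correction can move it. These ratios were chosen after the values had been seen and are given as a description, with their range over leaving out each array, normexp and quantile normalization. The log2 ratio of the cytosolic Idh1 to the mitochondrial Idh2 was 0.31 higher in siGPR17 OPCs (range 0.18 to 0.44). That of Me1 to Me2 was 0.28 higher (range 0.17 to 0.34), with the lowest value, 0.17, under normexp. That of Mdh1 to Mdh2 was 0.12 higher (range 0.066 to 0.17). For these 3 ratios the groups did not overlap. For Got1 against Got2 the difference of this ratio was -0.016 (range -0.095 to 0.062), with overlap. The log2 ratio of the citrate carrier Slc25a1 to Acly was 0.44 higher in siGPR17 OPCs (range 0.36 to 0.52).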
